A study of Mus musculus with 2 samples.

Results

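The genes examined were the CREB family factors Creb1, Crem and Atf1, their coactivators Crtc1, Crtc2, Crtc3 and Crebbp, and the cAMP-induced nuclear receptor genes Nr4a1, Nr4a2 and Nr4a3. They were taken by gene symbol from the deposited expression files of both libraries. All 10 were found, each on a single row per file, among 18742 named genes above 0 in at least 1 library. Expression is given as FPKM, the read number of a gene divided by the length of its transcript and by the depth of the library, so that levels of different genes can be compared per length. For single-end reads FPKM is the same as RPKM.

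The cells were primordial germ cells (PGCs), the embryonic precursors of eggs and sperm. They were sorted by GFP from the genital ridges of male and female E13.5 embryos carrying the Oct4-deltaPE-GFP transgene, from MCH females and transgenic males on a C57BL/6J background. Control PGCs received a control lentivirus and Klf9-OE PGCs a lentivirus with the Klf9 coding region in a CSII-EF vector, both at an MOI of 5, and both were cultured for 1 day. The sample labels describe the medium as containing bFGF, whereas the paper describes it as lacking bFGF, and in either case it was the same for both. Each group was 1 library, so no difference below has a replicate check. The intervals are those that Cufflinks gave for its own estimate within a library and do not cover the spread between cultures.

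CREB factors bind cAMP response elements in DNA. When cAMP activates protein kinase A, CREB1, CREM and ATF1 are phosphorylated and then bind the acetyltransferases CBP, encoded by Crebbp, and p300, encoded by Ep300. The CRTC proteins are held in the cytoplasm by phosphorylation through salt-inducible kinases, and after dephosphorylation they enter the nucleus and bind CREB. The Nr4a genes encode orphan nuclear receptors and are among the genes that CREB induces within a short time after a cAMP signal. Forskolin, which raises cAMP, is used in cultures that reprogram PGCs. The libraries were made to find genes that differ with Klf9-OE, and the study turned to cAMP signalling afterwards. FPKM measures transcripts and not the phosphorylation or location of the factors.

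The Nr4a promoters are shown because CREB is known to bind the letters TGACGTCA and its half-site TGACG, and these are the cAMP-induced genes of the group. RefSeq windows of 300 bases, 250 before and 50 after a transcript start in GRCm38.p6, which has the coordinates of mm10, were held for 8 of the 10 genes. Crem and Crtc2 had no window. The sequences below run 5′ to 3′ on the strand of the gene, with the half-site, TGACG or its reverse complement CGTCA, in capitals. For Nr4a1 and Nr4a2 they are the 250 bases before the start, at chr15:101266596-101266845 on the forward strand and chr2:57124004-57124253 on the reverse strand. For Nr4a3 they are the first 98 bases of the window, at chr4:48045055-48045152 on the forward strand, which end before the first exon that GENCODE annotates.
Nr4a1: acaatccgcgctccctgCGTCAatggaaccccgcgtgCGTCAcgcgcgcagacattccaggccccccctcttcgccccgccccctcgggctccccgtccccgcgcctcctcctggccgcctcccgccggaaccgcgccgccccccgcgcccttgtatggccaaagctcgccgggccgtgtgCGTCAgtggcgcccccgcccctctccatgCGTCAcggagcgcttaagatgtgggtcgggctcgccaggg
Nr4a2: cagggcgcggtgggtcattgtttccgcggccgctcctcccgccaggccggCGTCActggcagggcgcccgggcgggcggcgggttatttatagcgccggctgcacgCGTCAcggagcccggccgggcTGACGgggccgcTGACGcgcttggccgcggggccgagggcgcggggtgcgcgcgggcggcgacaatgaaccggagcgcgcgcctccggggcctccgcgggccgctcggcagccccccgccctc
Nr4a3: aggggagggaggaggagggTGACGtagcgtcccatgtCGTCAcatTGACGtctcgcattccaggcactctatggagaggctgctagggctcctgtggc

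Each of the Nr4a windows held 4 half-sites. In Nr4a1 they began 233, 213, 69 and 40 bases before the start, in Nr4a2 200, 144, 123 and 111 bases before it, and in Nr4a3 231, 213, 205 and 147 bases before it. The half-site of Nr4a3 at 147 bases lies past the bases shown, in an exon that GENCODE annotates. Of 32851 RefSeq windows of the same length, 0.231% held 4 or more half-sites and 20.8% held at least 1, with both strands searched. No window of the 8 genes held the full TGACGTCA, which was present in 1.79% of all windows. Atf1 held 1 half-site, 90 bases before the start, and Creb1, Crtc1, Crtc3 and Crebbp held none in these windows. The GC box GGGCGG, to which Klf factors including KLF9 are known to bind, was searched on both strands as well. It was present 5 times in the window of Nr4a2, 4 times in that of Crtc3, 3 times in that of Nr4a1, 2 times in those of Creb1, Atf1 and Crebbp and once in that of Nr4a3, and was not found in that of Crtc1. At least 1 GC box was found in 35.7% of all windows and at least 2, overlapping ones counted separately, in 19.5%. These are matches of letters and do not show binding.

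**Figure D1:**
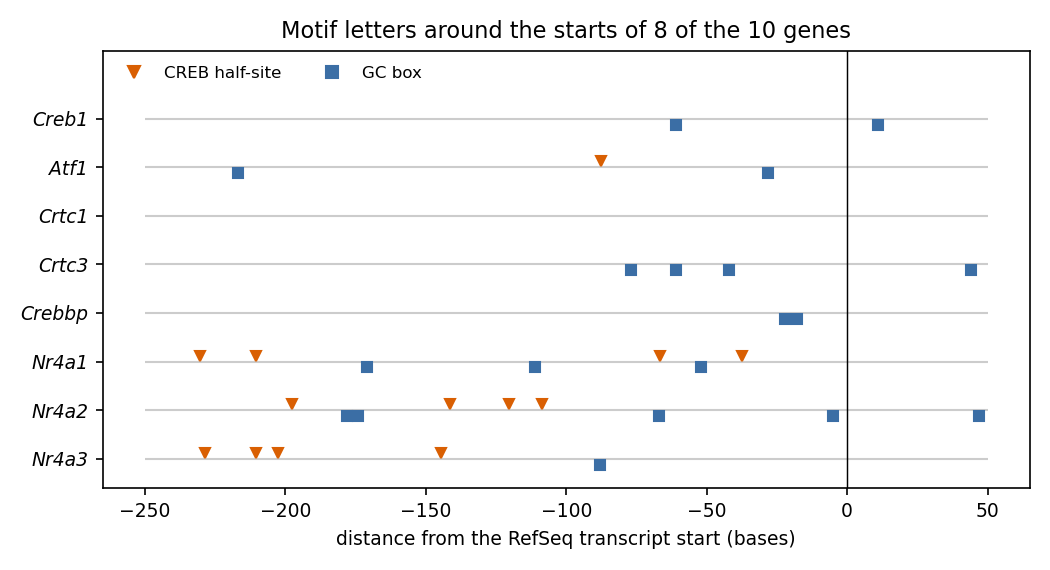
Positions of the CREB half-site (orange triangles, either strand) and of the GC box (blue squares, either strand) in bases from the RefSeq transcript start, in windows of 300 bases. The windows of Nr4a1, Nr4a2 and Nr4a3 each hold 4 half-sites, that of Atf1 holds 1 and the other windows hold none.

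Klf9, the gene that the vector carried, had an FPKM of 2.27 in control PGCs, against 80.8 in Klf9-OE PGCs, a ratio of 35.6. By quantitative PCR the paper reports a far larger rise of Klf9 at the same MOI, in younger PGCs cultured for longer. At a lower MOI it reports a rise below this ratio but closer to it. The vector carried the coding region, whereas FPKM divides by the length of the transcript. What sets the ratio apart from the rise by quantitative PCR was not tested. The germ cell label was checked against 14 markers, all of which were above 0 in both libraries, with a summed FPKM of 2612 in control PGCs, against 2316 in Klf9-OE PGCs. By value, 12 of the 14 were lower in Klf9-OE PGCs and 2 were higher, with a median log2 fold change of -0.295, against -0.0151 over all genes. The Cufflinks intervals of 9 of them did not overlap on the lower side, where those of 14.4% of all genes did not, and those of 1, Dazl, did not on the higher side, where 11.2% did not. Sycp3, a component of the meiotic chromosome axis, was the highest of them at 541 and 557, with intervals that overlapped. Dppa3 was at 294 and 179 and Pou5f1, which encodes OCT4, at 387 and 277, and both were picked after the values were seen. Of 13 markers of gonad somatic cells above 0, the summed FPKM was 29.2 and 37.5, with 7 higher and 6 lower by value. The intervals did not overlap for 5 that were higher and 1 that was lower. Star, the cholesterol carrier of steroid-producing cells, was the 1 that was 2-fold higher with an FPKM of at least 1, listed at 0 in control PGCs and at 2.39 in Klf9-OE PGCs. Of the other markers, picked after the values were seen, Wt1 was at 3.41 and 5.64, Amh at 5.99 and 9.29, and Sox9, a Sertoli cell factor, at 2.04 and 1.09. Of 8 endothelial markers the summed FPKM was 3.92 and 9.50, with 5 higher and 3 lower by value. Their intervals did not overlap for 2 that were higher and 1 that was lower. Cdh5, which encodes the junction protein VE-cadherin, was at 1.995 and 5.085, while Eng, a coreceptor for TGF-beta, was listed at 0 in control PGCs and at 2.38 in Klf9-OE PGCs. Of 7 macrophage and blood markers above 0 the sum was 6.11 and 5.38, with 2 higher and 5 lower by value and a median log2 fold change of -1.05. Of these markers, 3 had an FPKM of at least 1 in at least 1 library. Their intervals did not overlap for 1 that was higher and 2 that were lower, where those of 11.2% and 14.4% of all genes did not. Csf1r, the receptor for macrophage colony stimulating factor, was at 0.307 and 1.18, while Lyz2, which encodes lysozyme, was at 1.00 in control PGCs and listed at 0 in Klf9-OE PGCs. Genes outside these lists were listed at 0 in 1 library as well. Abca3 was at 12.1 in control PGCs and 0 in Klf9-OE PGCs, and 2310010J17Rik at 0 and 16.6. Whether a 0 stands for absent transcripts or for a locus listed under another name was not tested. The sums and counts above include such values. In bulk RNA, fewer cells of a type and less RNA per cell cannot be told apart. The part of these cells in the values below was not tested.

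Transcripts of all 3 CREB factors were present in both libraries, and Atf1 was the most abundant of the 10 genes. Atf1 encodes an activator closely related to CREB1. It had an FPKM of 38.1 in control PGCs, with a 95% interval by Cufflinks of 34.4 to 41.7, against 40.9 in Klf9-OE PGCs (38.9 to 42.8). These intervals overlapped, and the ratio of Klf9-OE to control was 1.07 (95% interval of the ratio 0.965 to 1.19). Crem encodes both activators and, from an internal promoter, the repressor ICER. The FPKM of Crem pools 4 transcript starts and was 8.34 (7.44 to 9.24) in control PGCs, against 7.35 (6.60 to 8.11) in Klf9-OE PGCs, a ratio of 0.882 (0.760 to 1.02). The gene value does not separate ICER from the activators. Creb1, which encodes the founding member of the family, had the lowest FPKM of the 3, at 4.002 (3.68 to 4.32) in control PGCs, against 4.34 (4.05 to 4.62) in Klf9-OE PGCs, a ratio of 1.08 (0.978 to 1.20).

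Atf1 made up most of the CREB factor transcripts in both libraries. It accounted for 75.5% of the summed FPKM of the CREB factors in control PGCs, against 77.8% in Klf9-OE PGCs. Crem accounted for 16.5% and 14.0%, and Creb1 for 7.94% and 8.25%. The sum itself was 50.4 in control PGCs, against 52.6 in Klf9-OE PGCs. Atf1 lies on chromosome 15 from 100227819 to 100261244 of mm10 in the GENCODE annotation, Creb1 on chromosome 1 from 64532645 to 64604548 and Crem on chromosome 18 from 3266048 to 3337748. In the Klf9-OE file the locus of Atf1 began 13632 bases farther upstream than in the control file and overlapped the end of the neighbouring gene Dip2b, so its FPKM was estimated over a different locus in each library. The effect of this on the value of Atf1 was not tested.

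**Figure D2:**
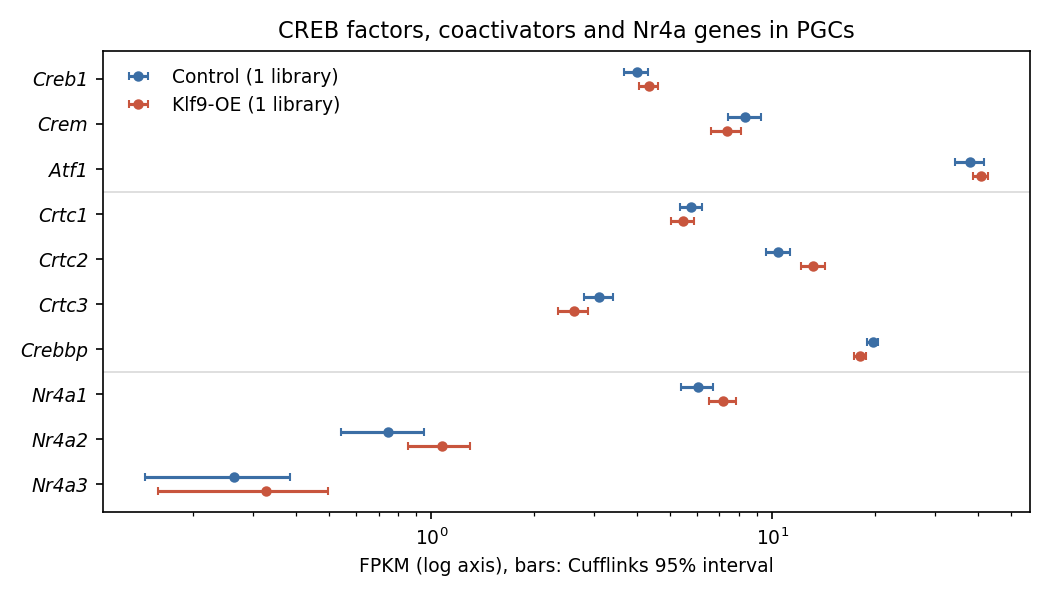
FPKM (log axis) of each of the 10 genes in the control library (blue) and the Klf9-OE library (red), with bars for the Cufflinks 95% interval within a library and grey lines between CREB factors, coactivators and Nr4a genes. The bars of Crtc2 and Crebbp do not overlap between the libraries, and those of the other 8 genes do.

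Among the coactivators, Crtc2 was higher and Crebbp was lower in Klf9-OE PGCs by more than the Cufflinks intervals. Crtc2, a CRTC protein known for its part in the response of liver to glucagon, had an FPKM of 10.4 (9.57 to 11.3) in control PGCs, against 13.2 (12.1 to 14.3) in Klf9-OE PGCs. The ratio was 1.27 (1.13 to 1.42). The width of a Cufflinks interval narrows as reads are added. Taken as set by the number of reads alone, it implied 605 reads of Crtc2 in control PGCs, against 600 in Klf9-OE PGCs. Their ratio was 0.992, whereas the FPKM ratio multiplied by the depth ratio of the libraries was 1.53, so the reads implied for Crtc2 did not rise with its FPKM. Of the genes with an FPKM of at least 1 in at least 1 library, 29.2% differed between the libraries by at least as much as Crtc2 on the log2 scale, in either direction. Crebbp had 19.7 (18.9 to 20.5) in control PGCs, against 18.1 (17.4 to 18.9) in Klf9-OE PGCs, a ratio of 0.921 (0.870 to 0.975). The ratio of its implied reads was 0.964, and that of its FPKM multiplied by the depth ratio was 1.11. These ratios differed by more than 10% for 6 of the 10 genes, Crtc2 and Crebbp among them, and were within 10% for Crem, Crtc3, Nr4a1 and Nr4a2, where they were for 56.6% of genes with 1 row per file that were above 0 in both libraries. For Atf1 they were 4.01 and 1.30, with 440 implied reads in control PGCs, against 1762 in Klf9-OE PGCs. What sets these ratios apart was not tested. Of the genes with an FPKM of at least 1 in at least 1 library, 63.3% differed by at least as much as Crebbp.

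The other CRTC genes were slightly lower in Klf9-OE PGCs, with intervals that overlapped. Crtc1, whose product is best known from neurons, had an FPKM of 5.78 (5.36 to 6.21) in control PGCs, against 5.47 (5.06 to 5.89) in Klf9-OE PGCs, a ratio of 0.946 (0.851 to 1.05). Crtc3 had 3.11 (2.81 to 3.41) and 2.62 (2.35 to 2.88), a ratio of 0.842 (0.731 to 0.969). Crtc2 was the most abundant CRTC transcript in both libraries, with 53.9% of the summed FPKM of the CRTC genes in control PGCs, against 62.0% in Klf9-OE PGCs. The sum was 19.3 in control PGCs, against 21.3 in Klf9-OE PGCs.

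Crtc2 lies on chromosome 3 from 90254163 to 90264125 of mm10. Its locus ran from 90254232 to 90264179 in control PGCs, against 90254281 to 90264125 in Klf9-OE PGCs. Within its locus, Cufflinks assembled 1 locus without a gene name in control PGCs, against 5 in Klf9-OE PGCs. None of these had a base in an exon of a protein-coding transcript of Crtc2 in GENCODE, and 2 of the 5 overlapped exons of its other transcripts. Their FPKM was between 3.72 and 10.1 in Klf9-OE PGCs and 3.69 in control PGCs. Such loci inside a gene were more frequent in the Klf9-OE library in general: of 12565 genes with an FPKM of at least 1 in at least 1 library, 2.84% held 5 or more in Klf9-OE PGCs against 0.549% in control PGCs. Whether these reads bear on the FPKM of Crtc2 was not tested.

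By value, Crebbp was lower in Klf9-OE PGCs and its paralog Ep300 was higher. Ep300 had an FPKM of 26.7 (25.6 to 27.8) in control PGCs, against 29.2 (28.1 to 30.4) in Klf9-OE PGCs. With the Klf9-OE interval widened for a possible counting of reads in pairs, the intervals of both genes overlapped. The level of Crebbp was 0.737 times that of Ep300 in control PGCs, against 0.620 times in Klf9-OE PGCs. Crebbp lies on chromosome 16 from 4081328 to 4213997, Crtc1 on chromosome 8 from 70382355 to 70439579 and Crtc3 on chromosome 7 from 80586627 to 80688877 of mm10. The locus of Crebbp was estimated from 4082134 in control PGCs, against 4082713 in Klf9-OE PGCs. The effect of this on the value of Crebbp was not tested.

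The Nr4a genes were all higher by value in Klf9-OE PGCs, and the intervals of each overlapped between the libraries. Nr4a1, which encodes NUR77, had an FPKM of 6.06 (5.41 to 6.72) in control PGCs, against 7.16 (6.51 to 7.81) in Klf9-OE PGCs, a ratio of 1.18 (1.02 to 1.36). Implied reads of Nr4a1 were 342 in control PGCs, against 485 in Klf9-OE PGCs. Implied reads are given without correction for a possible counting of Klf9-OE reads in pairs. Nr4a2, which encodes NURR1, had 0.747 (0.542 to 0.952) and 1.08 (0.854 to 1.30), a ratio of 1.44 (1.02 to 2.03), with 53.1 and 94.5 implied reads. On the scale of log2(FPKM + 0.1) this was the largest difference of the 10 genes, and 19.9% of genes with an FPKM of at least 1 differed by at least as much. With a pseudocount of 1 the log2 fold change of Nr4a2 was 0.25, below the 0.31 of Crtc2. Nr4a3, which encodes NOR1, was the lowest of the 10 genes, at 0.264 (0.144 to 0.384) in control PGCs, against 0.328 (0.157 to 0.498) in Klf9-OE PGCs. Its ratio of 1.24 had an interval from 0.623 to 2.48, so a difference of 2-fold in Nr4a3 was not excluded by the estimate. Implied reads of Nr4a3 were 19.5 in control PGCs, against 14.8 in Klf9-OE PGCs, so they did not rise with its FPKM.

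Nr4a1 made up most of the Nr4a transcripts. It accounted for 85.7% of their summed FPKM in control PGCs, against 83.6% in Klf9-OE PGCs, while the sum was 7.07 and 8.56. Nr4a1 lies on chromosome 15 from 101254269 to 101274795 of mm10, Nr4a2 on chromosome 2 from 57106830 to 57124003 and Nr4a3 on chromosome 4 from 48045153 to 48086447. The locus of Nr4a1 began 5263 bases farther upstream in the Klf9-OE file than in the control file. Those of Nr4a2 and Nr4a3 had the same bounds in both.

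**Figure D3:**
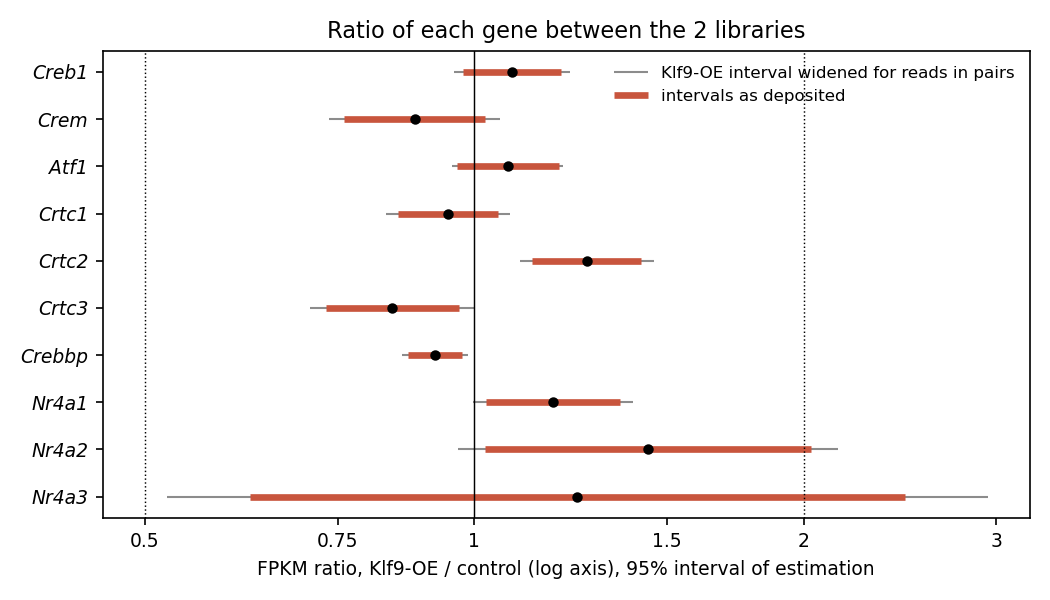
Ratio of the FPKM in Klf9-OE to control PGCs (log axis) for each gene (black points), with its 95% interval from the deposited Cufflinks intervals (red) and with the Klf9-OE interval widened for reads counted in pairs (grey). Dotted lines mark ratios of 0.5 and 2, and with the widened interval Crtc2 and Crebbp alone leave out a ratio of 1.

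None of the 10 genes was 2-fold different on the scale of log2(FPKM + 0.1), where 8.52% of 18742 genes were, 4.52% higher and 4% lower. The log2 fold changes ran from -0.24 for Crtc3 to 0.47 for Nr4a2, with a median of 0.107, against a median of -0.0151 over all genes. By value, 6 genes were higher and 4 were lower. The Cufflinks intervals of 2 of the 10 genes did not overlap, Crtc2 higher and Crebbp lower, where those of 25.6% of 18631 genes did not, 11.2% higher and 14.4% lower. The interval of the ratio left out 1 for 3 genes that were higher, Crtc2, Nr4a1 and Nr4a2, and for 2 that were lower, Crtc3 and Crebbp, where it did for 37.8% of 16969 genes. The counts of 0 and 2 lie below the shares of all genes and the count of 5 lies above, and with 10 genes none of them is a result particular to this group.

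The Klf9-OE intervals may be too narrow. Even numbers made up 87.8% of the read numbers implied for 1809 weakly expressed genes (9 reads or fewer) in the Klf9-OE library, but 36.2% of those for 2170 genes in the control library, as would be seen if Klf9-OE reads were counted in pairs. Whether they were was not tested. If they were, the implied reads of Klf9-OE PGCs and the depth ratio would be too high as well. With the Klf9-OE interval widened accordingly, the ratios of Nr4a1 (0.998 to 1.40), Nr4a2 (0.966 to 2.15) and Crtc3 (0.708 to 1.001) included 1. Those of Crtc2 (1.10 to 1.46) and Crebbp (0.858 to 0.987) still left it out, and 31.1% of all genes did so. With the same widening, the intervals of Crtc2 alone, 1 of the 10 genes, did not overlap, where those of 20.4% of all genes did not. When the FPKM of both libraries were rescaled to the same sum, without the widening, the interval of Crtc2 ran from 1.18 to 1.48. Those of Crebbp (0.908 to 1.02) and Crtc3 (0.763 to 1.01) then included 1. Those of Creb1 (1.02 to 1.25) and Atf1 (1.007 to 1.246) then left it out on the higher side.

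The order of the levels by value was the same in both libraries. In control PGCs it ran from Atf1 through Crebbp, Crtc2, Crem, Nr4a1, Crtc1, Creb1, Crtc3 and Nr4a2 to Nr4a3. The intervals of neighbours in this order did not overlap, except those of Nr4a1 and Crtc1. In Klf9-OE PGCs the order was the same and the neighbours whose intervals overlapped were Crem and Nr4a1. In control PGCs, Atf1 stood at percentile 86.0 of the genes above 0, Creb1 at 48.5 and Nr4a3 at 19.9.

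**Figure D4:**
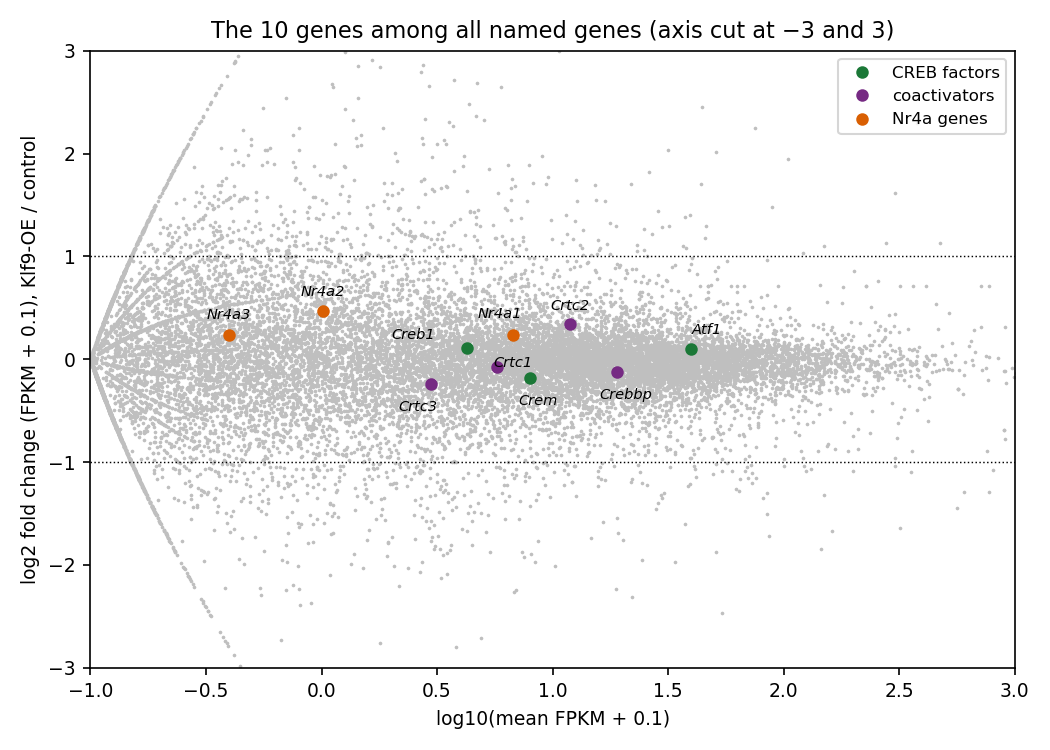
Log2 fold change of FPKM + 0.1 between Klf9-OE and control PGCs against log10 of the mean FPKM + 0.1, for all 18742 named genes (grey, vertical axis cut at -3 and 3, horizontal axis ending at 3) and for the CREB factors, coactivators and Nr4a genes (coloured). All 10 genes lie between the dotted lines that mark 2-fold.

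Of 17 relatives of the CREB and ATF families, 16 were above 0, and Atf5 was listed at 0 in both libraries. Their median log2 fold change was -0.0118, 1 of them was 2-fold higher or more and 1 was 2-fold lower or more, where 4.52% and 4% of all genes were. Atf3, a stress-induced factor, had an FPKM of 1.07 (0.770 to 1.36) in control PGCs, against 2.25 (1.76 to 2.74) in Klf9-OE PGCs. Jdp2, a repressor that binds AP-1 and ATF sites, had 1.39 (0.999 to 1.79) and 0.615 (0.371 to 0.859). The intervals of neither gene overlapped. In the whole list they did not overlap for 5 genes that were higher and 3 that were lower, of 16, where they did not for 11.2% and 14.4% of all genes.

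Of 21 kinases and phosphatases that act on CREB or the CRTC proteins, 20 were matched by symbol, and none was 2-fold different. The median log2 fold change was -0.0113, and the intervals of 4 genes that were higher and 4 that were lower did not overlap, where those of 25.6% of all genes did not. With the widened Klf9-OE interval these were 2 and 4 genes, against 20.4% of all genes. Among the salt-inducible kinases, Sik1 had an FPKM of 14.0 (13.3 to 14.7) in control PGCs, against 12.1 (11.3 to 12.8) in Klf9-OE PGCs. Sik3 had 27.6 (26.3 to 28.9) and 26.8 (25.5 to 28.1). Sik2 had 12.8 and 17.4, but its control interval ran from 0 to 13767, so the control value of Sik2 cannot be used. Ppp1ca, a catalytic subunit of protein phosphatase 1, had the highest mean of the list at 140 and 157. The gene of the list that differed most was Rps6ka5, which encodes the CREB kinase MSK1, and it was picked after the values were seen. It had 15.0 (13.7 to 16.4) and 8.57 (7.95 to 9.19), a ratio of 0.570.

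Of 12 acetyltransferases and other partners of CBP or the CRTC proteins, none was 2-fold different, and the median log2 fold change was 0.103. The intervals did not overlap for 3 genes that were higher and 1 that was lower, and with the widened Klf9-OE interval for 2 and 1, where the shares of all genes were 25.6% and 20.4%. Nono, which encodes a nuclear protein that can bind CRTC, was the most abundant at 63.6 and 68.0. Of 6 receptors that pair with or resemble the NR4A receptors, none was 2-fold different on the scale of log2(FPKM + 0.1). Their largest log2 fold change on this scale was 0.961, and the scale understates fold changes of weakly expressed genes. The intervals of 1 did not overlap, on the higher side, where those of 11.2% of all genes did not. Rxrb, a retinoid X receptor, was the highest of them at 14.8 (13.7 to 15.9) in control PGCs, against 13.51 (12.5 to 14.5) in Klf9-OE PGCs.

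Of 36 genes outside the Nr4a family that cAMP is known to induce in one tissue or another, 33 were above 0. Their median log2 fold change was 0.126, 3 of them were 2-fold higher or more and 1 was 2-fold lower or more, where 4.52% and 4% of all genes were. Egr1, an immediate early gene that other signals induce as well, had an FPKM of 3.76 (3.32 to 4.20) in control PGCs, against 8.45 (7.85 to 9.04) in Klf9-OE PGCs. Vgf, which encodes a secreted neuropeptide precursor, had 0.170 (0.0675 to 0.273) and 2.89 (2.50 to 3.28). Star, which was among the gonad somatic markers too, was listed at 0 in control PGCs and at 2.39 (2.12 to 2.67) in Klf9-OE PGCs. The limit given above for values of 0 applies to Star here. Bdnf, a neurotrophin gene, was lower, at 2.32 (1.98 to 2.66) and 0.998 (0.811 to 1.18). Common targets differed from one another. Fos had 10.8 (9.87 to 11.7) and 10.9 (10.1 to 11.8), with intervals that overlapped, whereas Per1, a circadian clock gene, was lower in Klf9-OE PGCs at 11.8 (11.1 to 12.4) against 16.5 (15.6 to 17.4). The intervals of 9 genes that were higher and 4 that were lower did not overlap, of 33. The 9 genes make a larger share than the 11.2% of all genes and the 4 genes a smaller share than the 14.4%, and the lists were chosen with results of these data known, so no test was made of this difference.

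**Figure D5:**
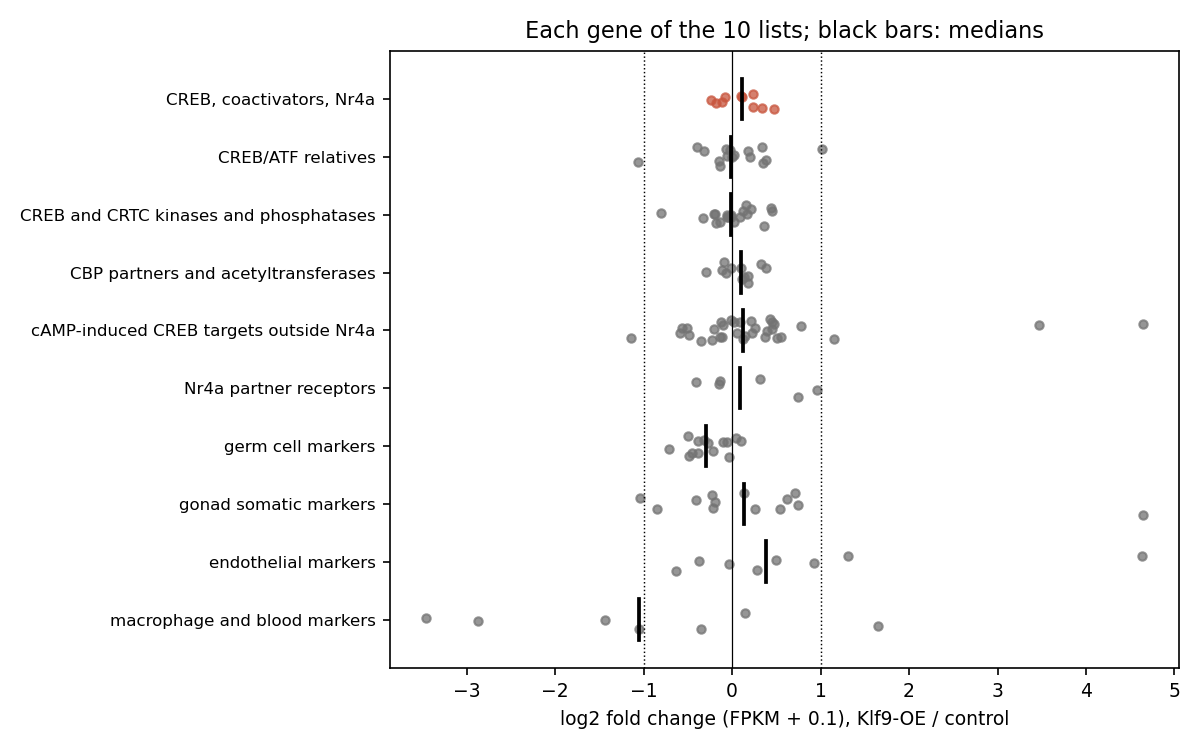
Log2 fold change of FPKM + 0.1 in Klf9-OE against control PGCs for each gene above 0 in 10 lists, with points spread vertically for view, black bars at the medians and dotted lines at 2-fold. The 10 CREB, coactivator and Nr4a genes (red) lie between -0.24 and 0.47.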

How the data were processed

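RNA-seq libraries of control PGCs and Klf9-OE PGCs, 1 each, were made with the TruSeq RNA sample prep kit and sequenced as 51-mer single-end reads. Reads were mapped by the authors with TopHat2 and Bowtie (mm10, RefSeq annotation), who deposited the FPKM of each locus, as estimated by Cufflinks, with the bounds of its 95% interval. Versions of these tools are not given in the sources used here. Cufflinks also assembled loci without a gene name.

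FPKM was summed over rows of the same symbol, and 0.1 was added before taking log2, so that fold changes of weakly expressed genes are understated. Intervals were compared for genes with 1 row per file. The interval of a ratio combined the relative half-widths of both libraries on the natural log scale. The files hold no read totals, so implied reads were the square of 2 times the FPKM divided by the distance to the upper bound. They stand for read numbers only where the number of reads alone sets the width. The control interval of Sik2 shows that this is not so for every gene. Their ratio between libraries was compared with that of the FPKM multiplied by the depth ratio of 1.21, with a tolerance of 10%. This depth ratio of Klf9-OE to control was the median over 9884 genes, without correction for reads counted in pairs. Implied reads within 0.06 of a whole number were counted as whole.

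With 1 library per group no test was possible. Members and gene lists were chosen with earlier results of these data known. All members were named, and from each other list the genes 2-fold different with an FPKM of at least 1, or, where there were none, the gene with the highest mean, with Klf9, Ep300, the Sik genes, Fos and Per1. Rps6ka5, Dazl, Dppa3, Pou5f1, Wt1, Amh and Sox9 fall outside this rule and were picked after their values were seen. Rps6ka4 and Pdgfra, listed under joint names, and 4 blood markers were not matched by symbol. Alternatives were pseudocounts of 0.01 and 1, folds of 1.5 and 4, rescaling to the same upper quartile or sum, the highest row of each symbol, an FPKM of at least 1, and a Klf9-OE interval widened by the square root of 2. Steps were run on simulated independent reads, with intervals built by the same formula. This checks the code and not the intervals of these libraries. Python 3.11.15, numpy 2.4.6, pandas 2.3.3 and matplotlib 3.10.9 were used.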

Additional observations from a re-analysis of the deposited data

How the results depend on the processing

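No paired analysis was possible because each group has 1 library, and for the same reason no library could be left out. The sign of the log2 fold change turned for 0 of the 10 genes under the alternatives to the pseudocount, the scaling, the rows used and the minimum, of which 9 genes were run under 6 and Nr4a3, below the minimum, under 5. It ran from 0.07 to 0.30 for Nr4a3, from 0.25 to 0.53 for Nr4a2 and from 0.31 to 0.40 for Crtc2. The number of the 10 genes past the fold stayed at 0 at folds of 1.5 and 4 as well. That of all genes was 847 higher and 750 lower with the main settings of this re-analysis. It became 1944 and 1842 at 1.5-fold, and 261 and 186 at 4-fold. With a pseudocount of 0.01 it was 1688 and 1637, and with a pseudocount of 1 it was 308 and 288. With an FPKM of at least 1 it was 462 and 441. With the Klf9-OE interval widened for reads in pairs, 0 of the 10 genes had intervals apart on the lower side in place of 1, since those of Crebbp then overlapped. The median log2 fold change of the receptors that pair with or resemble NR4A turned from 0.0936 to -0.141 with an FPKM of at least 1, which leaves 4 of the 6 genes. Rescaling moved log2 fold changes up by at most 0.029 (upper quartile) or 0.062 (sum), and less for weakly expressed genes. With the same sum the median over all genes was 0.0411, that of the CREB and ATF relatives 0.0494 and that of the kinases and phosphatases 0.0425, each above 0 where the reported median was below it, and with the same upper quartile they were 0.0115, 0.0168 and 0.0139. The low number of reads limits Nr4a2 and Nr4a3 most.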

Other observations

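Promoter letters were counted for the other lists as well. Of 23 cAMP-induced genes outside the Nr4a family for which RefSeq windows were held, 20 had at least 1 TGACG half-site within 300 bases around a start and 6 had the full TGACGTCA, where 6228 and 549 of 27025 genes did. Of 14 kinases and phosphatases with a window, 11 had a half-site and 0 had the full letters. Of 14 CREB and ATF relatives, 9 had a half-site and 1 had the full letters. The other lists had a half-site in 3 of 9 CBP partners, 1 of 5 receptors, 3 of 11 germ cell markers, 2 of 7 gonad somatic markers, 0 of 6 endothelial markers and 2 of 8 macrophage and blood markers, where 23.0% of all genes did. The counts describe the lists and were not tested.

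Among gene symbols whose loci overlap those of the 10 genes, Dip2b, at the upstream end of the Atf1 locus in the Klf9-OE file, had an FPKM of 7.20 there. Gm6225, which overlaps Crem, had an FPKM of 0.0971 in control PGCs, against 0.398 in Klf9-OE PGCs, and Gm15880, inside Crtc3, had 0.270 and 0.103. A locus without a gene name inside Crtc1 had an FPKM of 14.8 in control PGCs, with an interval from 5.23 to 24.3, and no such locus was assembled there in Klf9-OE PGCs.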
